A study of Mus musculus with 150 samples.

Results

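Chromosome 4 of the mouse was described in single tumour cells through the 311 bins that cover it, out of 5331 bins listed for the whole genome. Every bin listed for chromosome 4 was a member, and no measured value was used to choose them. All 311 had values in at least 80% of the cells and were kept, beside 4495 kept bins on the other 18 autosomes. The bins ran from base 3050001 to base 156358116 of chromosome 4 (GRCm38), had a median length of 498 kb (39.4 to 542 kb) and held the middles of 1298 protein-coding genes, while 78 bins held none.

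The cells came from 3 lung tumours, T1, T7 and T9, of 1 mouse killed 30 weeks after induction, with 50 sequenced cells per tumour. The study's label for the mouse is KP, and the strains listed for the study carried Trp53flox/flox, Rosa26LSL-tdTomato and Rosa26LSL-Luciferase on a mixed C57BL/6 x Sv129 background. Which reporter this mouse carried, and whether its tumours were induced with AdSPC-Cre or AdCMV-FlpO, is not stated for the single sample. All 3 tumours share the animal and its engineered alleles, no normal cells stood beside them here, and each tumour is a single specimen. The source label reads AT2 cells of lung tissue, and DNA copy number offers no marker that checks a cell type. Because each group is 1 tumour, the tumours are set side by side without a test, and cells count as measurements within a tumour, not as replicates of a condition.

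In single-cell DNA sequencing the number of bases read from a stretch of chromosome follows the number of copies the cell carries. Aneuploid tumours gain and lose whole chromosomes through mis-segregation and parts of chromosomes through breaks, and cells of the same tumour can differ. Mouse chromosome 4 carries the cell cycle inhibitor genes Cdkn2a and Cdkn2b in its middle and, towards its distal end, a gene-rich region that corresponds to the human short arm of chromosome 1. It also carries several families of related genes, among them the Mup, Skint and Ccl21 genes.

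Levels are deposited log2 copy ratios, centred in each cell on the median of its autosomal bins. On this scale 0 is the median autosomal level of the cell and -1 is 1 copy where that level is 2 copies. In T1 few chromosomes lay at that median. Chromosomes 3, 5, 8 and 12 lay at 0.18 to 0.19 there, and chromosomes 7, 10, 11 and 15 at -0.19 to -0.18. Chromosomes 1 and 13, at -0.05 and 0.07, lay nearest to 0, so copy numbers read from T1 levels depend on the centring. A change of the whole genome cannot be seen. A level at or under -0.42, the log2 of 1.5 over 2 copies, was called lost, and one at or over 0.32, the log2 of 2.5 over 2, was called gained. Filters on noise and coverage kept 47 T1 cells, 48 T7 cells and 50 T9 cells. T1 cells had a median of 97.7 Mb of sequenced bases (20.5 to 170), T7 cells one of 69.3 Mb (24.6 to 140) and T9 cells one of 56.7 Mb (43.3 to 82.1). A chromosome 4 bin thus received a median of 11.1 kb of sequence in a T1 cell, 11.9 kb in a T7 cell and 9.64 kb in a T9 cell.

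The positions of 3 gene families matter for reading the levels, because the bins that hold them lay apart from the rest of the chromosome. The following stretches, from RefSeq on GRCm38.p6, lie just upstream of genes in those bins and show how alike the family members are. The first pair comes from Mup genes, which encode major urinary proteins, pheromone carriers made mainly in the liver; capitals mark the box TATATAA. The next pair comes from Ccl21d and Ccl21a, chemokine genes whose product draws lymphocytes and dendritic cells into lymph nodes. The last pair comes from Skint6 and Skint5, members of a family named for its part in the development of skin T cells in mice. In the Ccl21 and Skint pairs capitals mark the bases at which the 2 sequences differ.
Mup4 (chr4:59960675-59960756, minus strand): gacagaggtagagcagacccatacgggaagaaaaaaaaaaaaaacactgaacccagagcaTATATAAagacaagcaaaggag
Mup6 (chr4:60003392-60003473, plus strand): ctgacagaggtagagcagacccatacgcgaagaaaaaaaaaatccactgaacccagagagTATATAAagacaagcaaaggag
Ccl21d (chr4:41903473-41903592, plus strand): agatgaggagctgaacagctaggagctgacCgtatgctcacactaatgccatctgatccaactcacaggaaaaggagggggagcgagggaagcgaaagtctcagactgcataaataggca
Ccl21a (chr4:42774011-42774130, minus strand): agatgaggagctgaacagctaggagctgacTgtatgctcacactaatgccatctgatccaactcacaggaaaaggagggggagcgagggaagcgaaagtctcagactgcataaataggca
Skint6 (chr4:113286994-113287113, minus strand): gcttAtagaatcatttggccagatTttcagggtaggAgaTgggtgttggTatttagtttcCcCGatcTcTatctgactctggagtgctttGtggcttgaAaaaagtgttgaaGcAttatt
Skint5 (chr4:113999524-113999643, minus strand): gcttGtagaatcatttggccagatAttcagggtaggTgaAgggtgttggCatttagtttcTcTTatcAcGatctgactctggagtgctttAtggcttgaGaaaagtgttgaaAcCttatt

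Over the 249 upstream bases that could be compared, Ccl21d and Ccl21a were the same at 248, although the genes lie on opposite strands almost 1 Mb apart. Skint6 and Skint5 were the same at 222 of 250 bases. Of 14 Mup promoters in the RefSeq table, 11 held TATATAA on either strand within 250 bases before the start used there, against 998 of 32817 promoters of the whole table (3.04%) and 61 of 2053 on chromosome 4 (2.97%). In 9 of them the box began 25 to 31 bases before that start. Of these 9 windows, 2 lay wholly outside the annotated span of their gene, and those are shown. The 82-base windows around the box were identical at a median of 76.8% of positions over the 36 pairs of these 9 promoters (64.6 to 100%). These windows were compared position by position from the box, without gaps. A shift of bases, as between the printed Mup4 and Mup6, thus counts as mismatches and lowers the value. For the Ccl21 and Skint pairs the best offset was searched, so the Mup value is not on the same measure.

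The whole chromosome stood lowest in T1, near the median autosomal level in T7 and between them in T9. In T1 the lowest, median and highest cell had chromosome 4 levels of -0.81, -0.69 and -0.31 (SD over cells 0.099, n = 47 cells). In T7 they were -0.30, -0.04 and 0.04 (SD 0.066, n = 48 cells). In T9 they were -0.54, -0.20 and 0.58 (SD 0.173, n = 50 cells). The highest T1 cell lay just under the lowest T7 cell, so kept cells of those tumours did not overlap, whereas T9 overlapped both. Cell 6 of T7, which the filters left out, lay at -1.73, under every T1 cell. As ratios, the medians correspond to 61.9%, 97.5% and 87.3% of the median autosomal level in T1, T7 and T9. With each cell centred on its commonest autosomal bin level instead, the medians were -0.77, -0.02 and -0.24. The raw depth table gives the same order: chromosome 4 took a median of 4.02% of the autosomal sequenced bases in T1 cells, 6.12% in T7 cells and 5.62% in T9 cells, where it makes up 6.35% of the autosomal bin length.

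**Figure D1:**
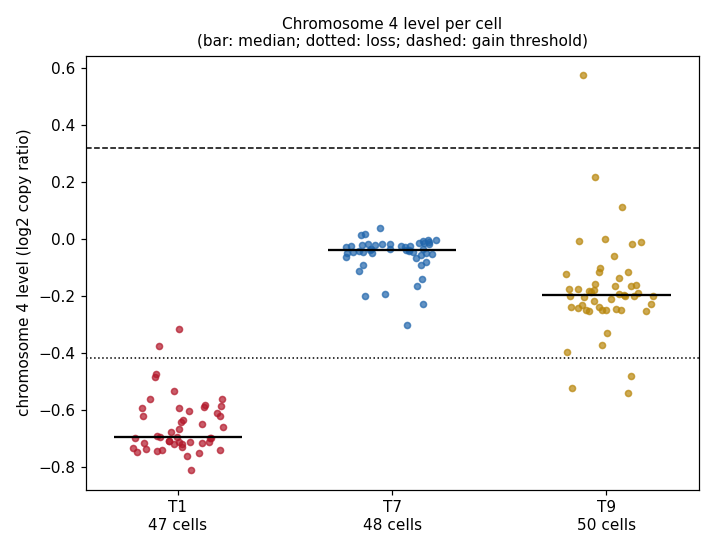
Chromosome 4 level of every kept cell (log2 copy ratio, vertical axis) in T1, T7 and T9; the bar is the median over cells, and the dotted and dashed lines are the loss and gain thresholds. The T1 cells gather around -0.69, the T7 cells around -0.04, and the T9 cells spread between -0.54 and 0.58.

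A loss of chromosome 4 was called for 45 of the 47 kept T1 cells (95.7%, exact Clopper-Pearson 95% interval 85.5 to 99.5%). For T7 it was called in 0 cells out of 48, for which the limit of 3 cells of the total is 6.25% and the exact upper bound 7.40%. For T9 it was called in 3 cells out of 50 (6%, interval 1.25 to 16.5%). These intervals and limits cover counting error only. Over all autosomes of all kept cells, 13.5% were called lost in T1, against 1.64% for T7 and 5.26% for T9. Gains of chromosome 4 numbered 0 in T1, 0 in T7 and 1 in T9, where 6.38%, 8.11% and 2.42% of all autosomes of kept cells were gained. The 2 T1 cells that were not called, cells 1 and 16 of that tumour, still had levels of -0.31 and -0.37. At a stricter threshold of -0.70 the call held in 40.4% of the T1 cells and in 0% of the T9 cells.

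The call counts of T9 hide its commonest state. Of its 50 cells, 36 had a chromosome 4 level between -0.3 and -0.1, a range that no copy number call covers, while 6 lay under -0.3, 5 within 0.1 of 0 and 3 above 0.1. In T7, 41 of 48 cells lay within 0.1 of 0 and 7 between -0.3 and -0.1. All 47 T1 cells lay under -0.3. In the 36 cells the median level of chromosome 19 was -0.23 (-0.52 to 0.58), and it was 0.03 (0.00 to 0.04) in the 5 cells that were near 0 on chromosome 4. In the 6 cells under -0.3, where chromosome 4 was lower still, the chromosome 19 median was -0.00091 (-0.36 to 0.04), so the pair did not move together over the whole range. Over the 50 T9 cells the Spearman rho between the levels of chromosomes 4 and 19 was 0.37. Both levels come from the same cell and the same centring, and what ties them was not tested.

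Set against the other 18 autosomes of the same cells, chromosome 4 had the lowest median level in T1, where the others ranged from -0.56 for chromosome 9 to 0.39 for chromosome 6. It was also the lowest of 19 in T7, but there by less than 0.01, since chromosome 7 had a median of -0.04 too. With the mean over bins weighted by the deposited bin weight it ranked as the fourth lowest in T7, so its place there changed with the setting. In T9 it ranked as the third lowest, after chromosome 9 at -0.46 and chromosome 19 at -0.21.

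**Figure D2:**
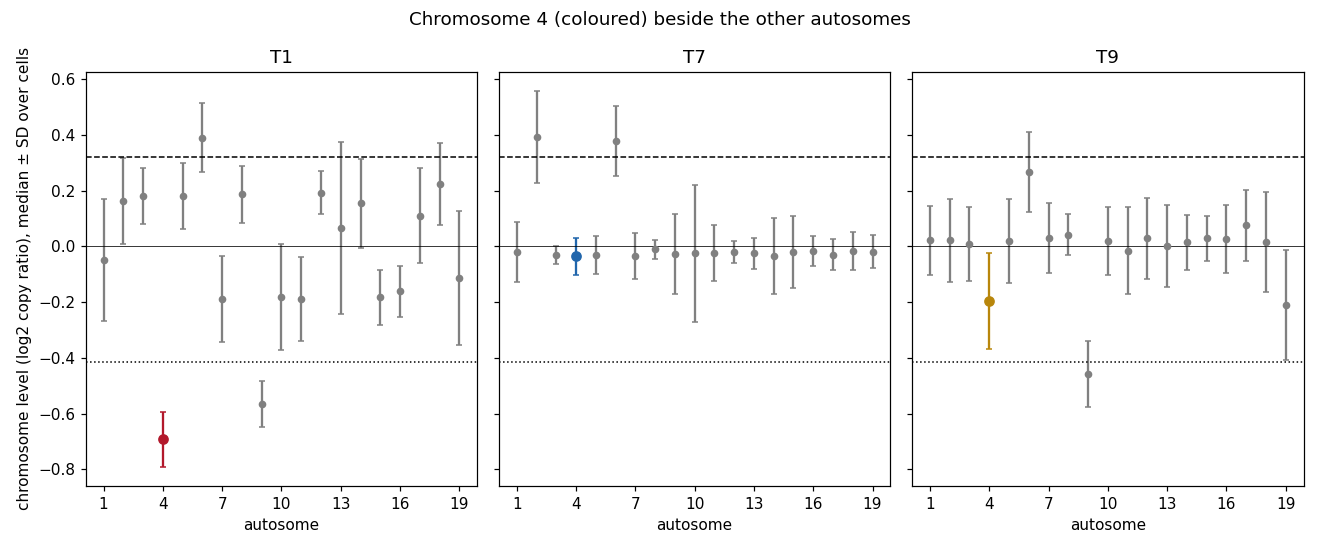
Median level over cells of each autosome (log2 copy ratio) with the SD over cells as bars, in T1, T7 and T9; chromosome 4 is coloured, the other 18 autosomes are grey, and the dotted and dashed lines are the loss and gain thresholds. Chromosome 4 lies at -0.69 (T1), -0.04 (T7) and -0.20 (T9).

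The rank of the spread between cells among autosomes depended on the tumour and on the measure of spread. The observed SD was 0.099, 0.066 and 0.173, and the noise between neighbouring bins, averaged over 311 bins, would give 0.014, 0.010 and 0.0095 in T1, T7 and T9. That value leaves out errors shared along a chromosome and errors of the centring, so it is a lower bound on the error of a cell's level. Levels taken from the odd-numbered and even-numbered bins of the same cells correlated at r = 0.96, 0.94 and 0.99 (n = 47, 48 and 50 cells, which share their library and their centring). By SD, chromosome 4 ranked at places 15, 12 and 3 of the 19 autosomes from the most variable in T1, T7 and T9. A measure that ignores extreme cells, the scaled median absolute deviation, was 0.071, 0.030 and 0.073. By that measure chromosome 4 ranked at places 10, 7 and 6, closer together than by SD. The SD of T9 was 0.115 without its 3 highest cells. The rho of the level with cell noise was -0.12, -0.06 and 0.10, and with sequenced bases -0.26, -0.33 and -0.01, in T1, T7 and T9. In T1 the level went with that of chromosome 9 (rho 0.66, n = 47 cells), the other chromosome lost in most of its cells. The T1 rho was 0.46 with chromosome 19, which was lost in 1 T1 cell, and 0.03 with chromosome 6. These levels share the cells and the centring, and what ties them was not tested.

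Along the chromosome the T1 loss covered most of the length. The bin medians of T1 lay at or under the loss threshold in 290 of 311 bins (93.2%), against 12.3% of all autosomal bins in that tumour. With the ratio taken from depth relative to T7 it held for 212 of 311 bins. In T7 this held for 1 bin, against 0.25% of all autosomal bins, and in T9 for 5 bins, against 4.22%. The T1 median lay below the T7 median in 310 of 311 bins, and the T9 median lay below the T7 median in 294. The same shares over all autosomal bins were not computed, so these counts do not set chromosome 4 apart. By chromosome median, T1 also lay below T7 on chromosomes 1, 2, 7, 9, 10, 11, 15, 16 and 19, and above it on the rest. T9 also lay below T7 on chromosomes 2, 6, 9 and 19, and above it on the rest. In 16 consecutive intervals of 10 Mb, the level ranged from -0.74 to -0.47 in T1, from -0.09 to 0.03 in T7 and from -0.26 to -0.10 in T9. The T1 minus T7 difference ranged from -0.73 to -0.41 over these intervals, and it was smallest in size in the last, which holds the end of the chromosome; in the other 15 it was -0.57 or lower.

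**Figure D3:**
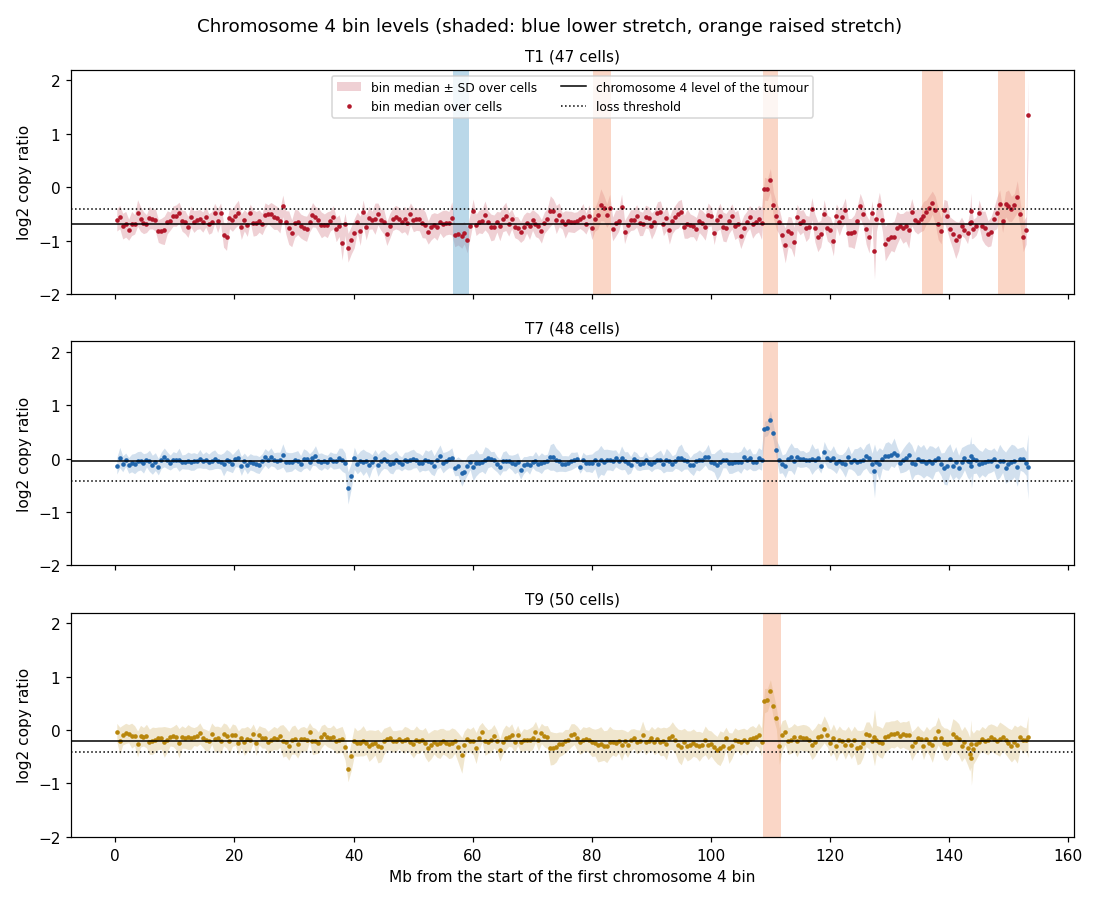
Median log2 copy ratio over cells of each chromosome 4 bin (points) with ± SD over cells (band), against distance in Mb from the start of the first bin, for T1, T7 and T9; the line is the chromosome 4 level of the tumour, the dotted line the loss threshold, and shading marks lower and raised stretches. Most T1 bins lie under the loss threshold, the 10 Mb intervals of T1 run from -0.74 to -0.47, and the stretch with the Skint genes stands up in all 3 tumours.

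The proximal and distal parts of the chromosome moved together in T1. The distal minus proximal difference, with the chromosome divided at its middle, had a median of 0.01 (SD 0.042) in T1, 0.02 (SD 0.028) in T7 and 0.00 (SD 0.088) in T9. It ran from -0.11 to 0.11 over T1 cells, from -0.04 to 0.08 over T7 cells and from -0.59 to 0.06 over T9 cells. When each cell was divided into segments of at least 10 Mb, 45 T1 cells, 0 T7 cells and 3 T9 cells had lost at least 80% of the chromosome's length. A part had been lost in 1 T1 cell, 3 T7 cells and 7 T9 cells. In the deposited ratio, 39 of the T1 cells were lost over the full length. Taken from depth relative to T7, T1 lay at 0.06 from base 138527265 to base 141982548 and at 0.21 from base 151327424 to base 155763152. No loss would be called at those levels.

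The 3 partial losses of T7 were alike. Cells 7, 16 and 20 of that tumour had lost the distal end, from bases 135071982, 134578370 and 135071982 to the last bin, with segment means of -0.75, -0.71 and -0.79. The lost ends were 21.3, 21.8 and 21.3 Mb long. Upstream of them the same cells lay at -0.02, at -0.04 and between -0.04 and 0.06, as in the rest of T7. The starts thus fell in the same or neighbouring bins in 3 of 48 cells, and the remaining 45 cells had no lost piece. The lost ends hold Runx3, a transcription factor gene, Epha2, a receptor tyrosine kinase gene, Mtor, which encodes the kinase of the nutrient-sensing complexes, and Trp73, a relative of Trp53. Arid1a, a chromatin remodelling gene, lies proximal to all 3 starts.

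The changes in T9 were of several kinds. Cell 25 had a proximal part at -0.03 and had lost everything from base 75854106 on, in 3 segments at -0.68, -0.54 and -0.71. Cell 39 was at 0.02 up to base 131616697 and at -0.67 beyond it. These 2 cells lacked the shift that most T9 cells showed over the whole chromosome, and their lost pieces lay between -0.71 and -0.54, where the median T1 level was -0.69.

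Other T9 cells carried an inner loss on top of a lowered chromosome. Cell 3 had a segment of 23.5 Mb at -0.49 between bases 75355488 and 98842556. Cell 23 had one at -0.53 between bases 66878977 and 99842110. Both segments hold Cdkn2a, Cdkn2b and Mtap, and both cells lay between -0.27 and 0.12 elsewhere. Cell 50 had a segment at -0.49 between bases 114807996 and 136552817.

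The cells that had lost most of the chromosome in T9 were cells 5, 46 and 49, at levels of -0.54, -0.39 and -0.52, and cell 19, at -0.48, had lost a smaller part of its length. Cell 16 was gained throughout, at a level of 0.58, and was the highest cell of the 145. Cell 4 lay above 0 in all its segments, and its inner segment from base 107839841 to base 145412230 was called gained at 0.36. Cell 24 was at 0.10 to 0.31 up to base 145412230 and at -0.45 over the remaining 10.9 Mb. The break at that base was found in cells 4 and 24 of T9 and also in 1 T7 cell. A break at base 144924486, a bin before it, was found in 4 T9 cells, 3 T7 cells and 1 T1 cell. Both places lie near the last position at which a segment of at least 10 Mb fits. Whether any of the T9 libraries described here held more than 1 cell was not tested.

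**Figure D4:**
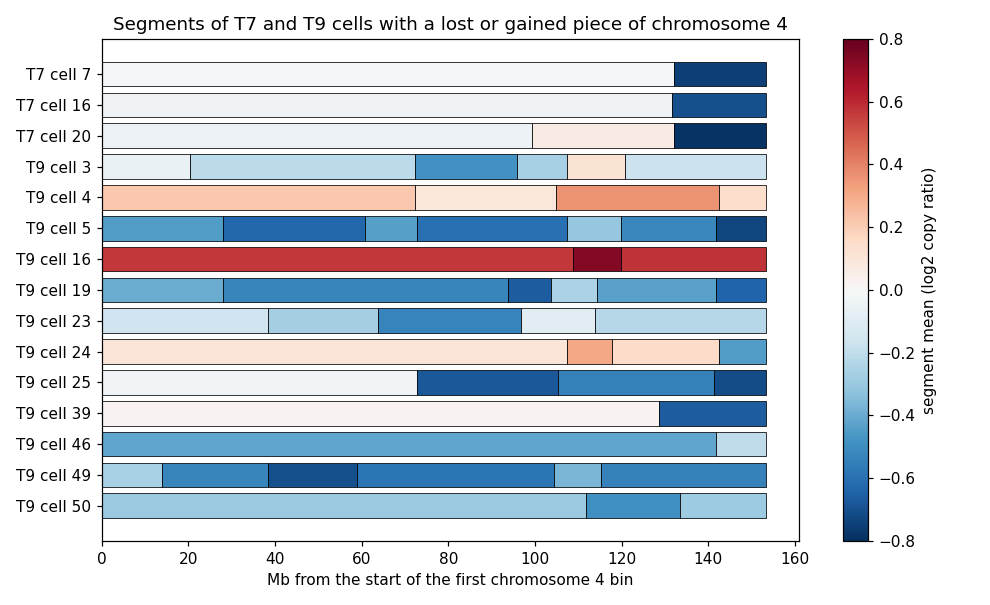
Segment means (log2 copy ratio, colour scale) along chromosome 4, in Mb from the start of the first bin, for the 3 T7 cells and the 12 T9 cells with a lost or gained segment. The T7 cells share a lost distal end at -0.71 to -0.79, while the T9 pieces differ in place and length.

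Some segment breaks recurred between cells. Segments had to be at least 10 Mb long, so a short raised stretch can set breaks at its edge and about 10 Mb away, and the shared places are given as positions only. In T1 a break at base 146049976 was found in 16 of 47 cells, with the end of the chromosome higher than the rest. In T9 a break at base 111821644, the start of the Skint stretch, was found in 13 of 50 cells and one at base 122887746 in 10. The number of cells with a single segment was 16 of 47 in T1, 14 of 48 in T7 and 3 of 50 in T9, and without the bins of the stretches described next it was 30, 32 and 21.

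Stretches were runs of at least 5 bins whose smoothed tumour median lay at least 0.15 from the chromosome 4 level. T1 had 1 lower stretch and 4 raised ones, whereas T7 and T9 had 0 lower stretches and 1 raised stretch each. Of the 311 bins, the T1 lower stretch held 5 and its raised ones 6, 5, 7 and 9. The raised stretch held 5 bins in T7 and 6 in T9. Over all autosomes, 6.45% of bins in T1, 0.52% in T7 and 6.03% in T9 lay in a lower stretch, and 6.87%, 0.437% and 5.78% in a raised one. Chromosome 4 thus had a smaller share of bins in the T1 lower and T9 raised stretches. Its share was larger in the raised stretches of T1 and T7.

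The lower stretch of T1 covered 5 bins from base 59812059 to base 62391412, which hold all 22 Mup genes of the chromosome among 28 protein-coding genes; Snx30 and Zfp37 lie in it too. Its level had a lowest, median and highest cell of -1.38, -0.90 and -0.41 in T1, and its median was -0.17 in T7 and -0.31 in T9. Against the chromosome 4 level of the same cell it was 0.25 lower on the log2 scale in T1 (lower in 46 of 47 cells), 0.12 lower in T7 (41 of 48) and 0.09 lower in T9 (40 of 50). The Mup bins were thus low in most cells of every tumour and lowest in T1. When the ratio was taken from the depth table relative to T7 cells, the T1 stretch lay at -0.70, which is 0.11 below its chromosome. With a distance of 0.25, or with bins of higher weight only, no lower stretch was found.

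The raised stretch shared by all tumours covered 5 bins from base 111821644 to base 114310270 and holds 11 Skint genes and Slc5a9, a sugar transporter gene; in T9 it included 1 bin more, with Trabd2b. T1 cells had a median of -0.10 there (-0.47 to 0.46), T7 cells one of 0.52, and T9 cells one of 0.53 (0.03 to 1.29). It lay above the chromosome 4 level in all 47, 48 and 50 cells, by a median of 0.55, 0.56 and 0.71. A gain was called there in 1 T1 cell, 45 T7 cells and 43 T9 cells. The T1 minus T7 difference in the stretch was -0.62, close to that of the whole chromosome. In the ratio taken from depth relative to T7 the T1 stretch lay at -1.01, which is 0.40 below its chromosome. That setting takes out what T1 shares with T7, so it cannot show whether the T1 stretch is raised. In the deposited ratio the stretch lay above the chromosome 4 level by 0.55 in T1 and 0.56 in T7. Taking out a rise shared to that extent would leave T1 near its chromosome level, not 0.40 below it. The deposited ratio and the ratio from depth thus differed for T1 in this stretch, and the cause was not tested.

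The other 3 raised stretches were found in T1 alone. At a distance of 0.25 T1 had 1 raised stretch in all, and with bins of higher weight only it also had 1. The first, from base 83333380 to base 86325089, holds Snapc3, Psip1, Ccdc171, Bnc2 and Cntln and lay at -0.48 (T1), -0.04 (T7) and -0.26 (T9). In T1 it was 0.20 above the chromosome level of the same cell (42 of 47 cells above). The second, from base 138527265 to base 141982548, holds phospholipase genes of the Pla2g2 group and Padi genes, whose products convert arginine to citrulline in proteins. Its level was -0.52 (T1), -0.03 (T7) and -0.18 (T9). Within T1 cells it was only 0.146 above the chromosome level (37 of 47 cells above). The third, from base 151327424 to base 155763152, holds Camta1, Hes2 and Tnfrsf25 and lay at -0.43 in T1, -0.05 in T7 and -0.18 in T9. Against the chromosome level of the same cell it was 0.26 higher in T1 (41 of 47 cells above), 0.01 lower in T7 and 0.01 lower in T9. Taken from depth, the last 2 of these stretches lay in T1 at 0.06 and 0.21, where no loss would be called, so the T1 level near the distal end differed between the deposited ratio and the ratio from depth relative to T7, a setting that changes both the table and the base.

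**Figure D5:**
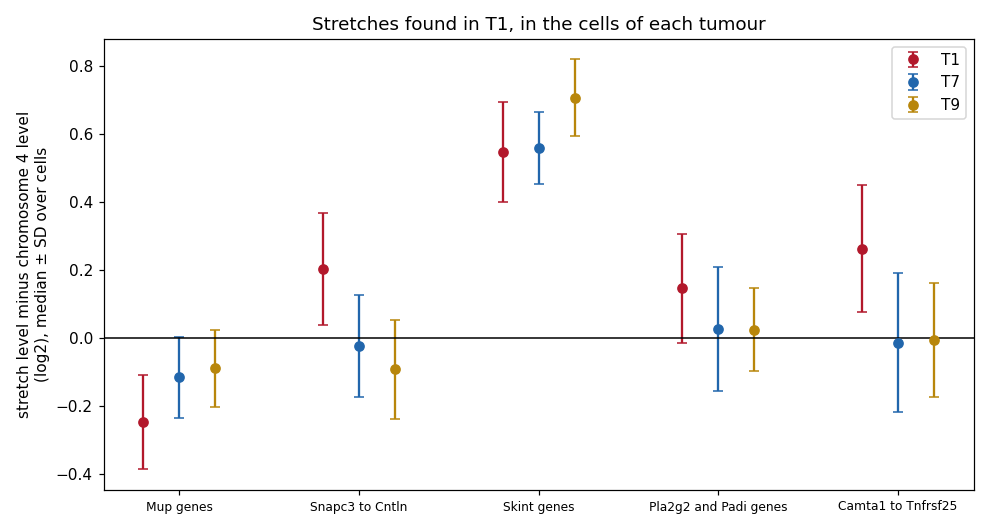
Level of the 5 stretches found in T1 minus the chromosome 4 level of the same cell (log2, median over cells with the SD as bars), shown for T1, T7 and T9. The Skint stretch is raised by 0.55, 0.56 and 0.71, and the Mup stretch is lowered by 0.25, 0.12 and 0.09.

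The single lowest and highest bins were in part the same in all tumours. The bin from base 41888237 to base 42386163, with Ccl21b and several gene copies without a standard name, was the lowest of the chromosome in T7 at -0.55 and in T9 at -0.73, and the second lowest in T1 at -1.13. The bins with the 3 Ccl21 genes together had medians of -1.05 (T1), -0.46 (T7) and -0.62 (T9), which is 0.40, 0.40 and 0.41 below the chromosome level of the same cells (below it in 46 of 47, 44 of 48 and 50 of 50 cells). The offset of these bins was thus of one size in all 3 tumours. These measures stand beside it: the cells share 1 animal, the Ccl21d and Ccl21a sequences printed above are almost the same, and the weights of these bins were 0.65 and 0.70. Their part in the offset was not tested.

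The lowest bin of T1, from base 130516310 to base 130579474 with Nkain1, was 63165 bases long and had levels of -1.19 (T1, SD 0.527), -0.23 (T7) and 0.06 (T9). The highest bin in T7 and T9, from base 112817095 to base 113314819 with Skint6, stood at 0.73 and 0.74, and it was the second highest in T1 at 0.13. The highest bin of T1 was the last one, from base 156306012 to base 156358116, 52.1 kb long, with Vmn2r125, a vomeronasal receptor gene. It had a median of 1.36 in T1 (-0.41 to 2.28), -0.15 in T7 and -0.13 in T9. It was above 0 in 43 T1 cells, in 19 cells of T7 and in 15 cells of T9. Its depth was 3.75, 1.84 and 1.81 times the typical depth of the cell in T1, T7 and T9, and its weight was 0.47.

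Other gene families differed from the chromosome less uniformly. The 2 bins with 8 Cyp4a genes, which encode fatty acid hydroxylases, lay at -1.01 in T1, -0.12 in T7 and -0.08 in T9; against the chromosome they were 0.30 lower in T1, 0.08 lower in T7 and 0.12 higher in T9. The 2 bins with 14 Ifna genes, which encode type I interferons, lay at -0.77, -0.07 and -0.24 in T1, T7 and T9. The 6 bins with 24 Pramel genes lay at -0.82, -0.04 and -0.18. The 6 bins with 24 olfactory receptor genes lay at -0.64, -0.02 and -0.21, within 0.03 of the chromosome level in each tumour.

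In T1 the bin levels went with gene density. The 45 bins with at least 10 protein-coding genes had a median of -0.81 in T1 (quartiles -0.91 and -0.65), against -0.63 (quartiles -0.67 and -0.56) in the 78 bins with 0 genes, a difference larger than in either other tumour. The same bins had medians of -0.04 and -0.06 in T7 and of -0.18 and -0.18 in T9. Spearman's rho between the bin median and the gene count was -0.35 for T1, 0.11 for T7 and -0.01 for T9 (n = 311 bins, which are neighbours on a chromosome and share base composition and processing). Between tumours, Pearson's r of the bin medians was 0.70 for T7 with T9, 0.30 for T1 with T7 and 0.20 for T1 with T9 (n = 311 bins).

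All 53 genes of the lists for tumour-related roles were found on chromosome 4. Each was given the median of the 5 bins around its middle, so a value is that of about 2.5 Mb and not of the gene alone. In T1, 51 of the 53 genes had a tumour level at or under the loss threshold, against 0 in T7 and 0 in T9. The T1 count is near the 93.2% of all chromosome 4 bins of T1 at or under that threshold, so it says nothing particular about these genes. The median gene level was -0.68 (T1), -0.04 (T7) and -0.17 (T9). With the threshold of -0.70, 24 genes passed in T1. The exceptions in T1 were Trp73 at -0.38 and Chd5, a chromatin remodelling gene, at -0.40, both in the raised stretch near the distal end. Taken from depth relative to T7, the 2 distal raised stretches, where Epha2 and Camta1 also lie, were above the loss threshold in T1.

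Among cell cycle genes, Cdkn2a and Cdkn2b, which encode inhibitors of the kinases that open the cell cycle, and their neighbour Mtap, of methionine salvage, share a bin. They had a level of -0.63 in T1 (SD 0.136, highest cell -0.32), with 45 of 47 cells lost. In T7 the level was -0.06 (SD 0.130, -0.37 to 0.42), with 0 of 48 cells lost. In T9 it was -0.22 (SD 0.189, -0.56 to 0.66), with 5 of 50 cells lost. Ccne2, which encodes a cyclin, lay at -0.77, -0.03 and -0.16 in T1, T7 and T9.

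Among chromatin genes the lowest in T1 was Arid1a, which encodes a subunit of a nucleosome remodelling complex. T1 cells had -0.87 there (SD 0.229, 44 of 47 cells lost), T7 cells 0.01 (SD 0.166, 0 of 48 cells) and T9 cells -0.06 (SD 0.230, 5 of 50 cells). Hdac1, a histone deacetylase gene, lay at -0.78, -0.02 and -0.15, and Prdm16, a regulator of cell identity near the distal end, at -0.46, -0.05 and -0.20. In the single bin of Prdm16 the T1 level was -0.17, one of the 21 bins of T1 that were not called lost; 15 of these lay in the raised stretches.

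The 15 signalling genes all had a 5-bin level at or under the loss threshold in T1, where 93.2% of the bins lay there. Mtor lay at -0.75 in T1 (SD 0.177), -0.04 in T7 (SD 0.213) and -0.21 in T9 (SD 0.205), and 45, 3 and 9 cells were lost there. The 3 T7 cells are those with the lost distal end. Jak1, a cytokine receptor kinase gene, lay at -0.71, -0.03 and -0.27, and Tgfbr1, which encodes a receptor of transforming growth factor beta, at -0.61, -0.05 and -0.29. Tgfbr1 was the lowest of the 53 genes in T9. Errfi1, whose product restrains the epidermal growth factor receptor, lay at -0.59, -0.03 and -0.17.

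The 16 transcription factor genes likewise all had a 5-bin level at or under it in T1, although the own bin of Camta1 lay at -0.31 and was lost in 16 of 47 cells. Mycl, a MYC family gene, lay at -0.77 in T1, 0.01 in T7 and -0.13 in T9. Nfib, which acts in lung development, lay at -0.65, -0.07 and -0.22, Klf4 at -0.76, -0.06 and -0.24, and Jun, a subunit of AP-1, at -0.57, -0.03 and -0.22. The range in T1 ran from -0.78 for Tal1 to -0.42 for Zbtb48, which lies in the raised distal stretch. The own bin of Zbtb48 was lower, at -0.63, and was lost in 43 of 47 cells.

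Of the 7 DNA repair genes, Rad54l, of homologous recombination, was the lowest of all 53 genes in T1 at -0.94 (SD 0.239, 45 of 47 cells lost), and it lay at -0.07 in T7 and -0.12 in T9. Rpa2, which encodes a subunit of the protein that covers single-stranded DNA, lay at -0.92, 0.04 and -0.10. Nbn, of double-strand break repair, lay at -0.64, -0.05 and -0.12, and 0 of 50 T9 cells were lost there. In T9 the cells lost at a listed gene ranged from 0 to 9 of 50. These counts come from 5-bin medians and not from the segments. A cell can thus count as lost at a gene without a lost piece there.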

How the data were processed

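Genomic DNA of single tumour cells was sequenced, and each sample is 1 cell. The submitters' processing notes name BWA 0.7.17 and GRCm38 per the labels, and no tool for the bins, ratios and weights is named in the sources used here. The deposited depth is a coverage signal per bin, the deposited log2 ratio is a log2 value per bin and cell whose reference is not given, and the deposited weight is a score per bin. The handling of doublets is likewise not given, and RNA data of the tumours were not used here. One result on an engineered allele is not reported here.

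Bins with values in at least 80% of cells were kept. Cells were kept with at least 80% of autosomal bins covered and noise no higher than 0.267, which is 3 scaled median absolute deviations above the median. Bins on chromosomes 1 to 19 gave the median on which a cell was centred, and its chromosome 4 level is the median of 311 bins. Segments came from optimal partitioning by least squares (penalty factor 3), tested on simulated data, where some flat cells also received a break, so breaks and single-segment counts alone were not read as copy number changes. Stretches used a running median over 5 bins. Named genes are those of 5 lists and of listed families, at most 5 genes per stretch, and the 2 lowest and 2 highest bins per tumour. Genes named in the lost ends of T7, beyond that, were chosen from the lists by position. Gene positions and sequences are RefSeq's, GRCm38.p6. Python 3.11.15 with numpy 2.4.6, pandas 2.3.3, scipy 1.17.1 and matplotlib 3.10.9 was used. No test was made between tumours. The members, lists and alternatives were chosen with earlier results of these data known.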

Additional observations from a re-analysis of the deposited data

How the results depend on the processing

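No paired analysis was possible because each tumour is 1 specimen of the same mouse and no result comes from a test. Of 143 alternative values, 102 were counted as unchanged and 41 as moved. A value was unchanged within the spread between cells, the interval or 1.5 times the value reported. A rank was unchanged only at the same place. The chromosome 4 level of T1 was -0.53 over the 4 T1 cells of lower noise, and 100% of those were called lost; with ratios taken from depth relative to all cells the T7 level was 0.17, where T1 and T9 cells lower the common base by construction. The T1 share lost was 40.4% at stricter and 100% at looser thresholds, and the T9 share 0% at stricter ones. From depth, 212 bins of T1, 0 of T7 and 0 of T9 were lost. The T1 lower stretches numbered 0 at a distance of 0.25, 2 with a running median over 3 bins, 3 for T1 minus T7, 0 with bins of higher weight and 8 from depth. The T1 raised stretches numbered 1, 2, 1 and 8 at a distance of 0.25, for T1 minus T7, with bins of higher weight and from depth. The T7 raised stretch was lost (0) under a distance of 0.25, higher weights and depth (there by construction, since all tumours in the base share it), and that of T9 (0) under higher weights. The scaled median absolute deviation was 0.030 in T7 and 0.073 in T9, and the SD of T1 over its quieter cells 0.064. Cells with 1 segment numbered 40, 33 and 23 in T1, T7 and T9 at a penalty of 6, then 0, 3 and 0 at 1.5, and 30, 32 and 21 without stretch bins; at 1.5, 3 T1 cells were lost in part. At stricter thresholds 24 listed genes were lost in T1. Ranked from the lowest level, chromosome 4 was 4 in T7 by weighted mean, and from depth 17 in T7 and 4 in T9; ranked by SD it was 4 in T9 by weighted mean, and 16 in T1 and 14 in T7 from depth. The removal of the 3 highest T9 cells was chosen after seeing the data. Depth of about 10 kb per bin limits single bins, whose SD over cells had a median of 0.226, 0.178 and 0.239 in T1, T7 and T9, more than whole-chromosome levels.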

Other observations

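At the distal end of the 19 autosomes, the last kept bin reached a median of at least 1 in T1 for chromosome 4 alone, at 1.36; the last bin of chromosome 9, which is also short at 72.6 kb, lay at -0.79 in T1, -0.14 in T7 and -0.61 in T9. Over all 4806 autosomal bins, 2 exceeded their T7 median by at least 1 in T1 (0.0416%), and the last bin of chromosome 4 was one of them, with a difference of 1.51. A level of 1 or more was found there in 30 T1 cells, in 3 cells of T7 and in 1 cell of T9.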
